A study of Mus musculus with 24 samples.

Results

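Skeletal muscle contractile genes were examined in breast tumors of mice given an antibody against pleiotrophin (PTN), a secreted growth factor. The members were 10 genes, chosen by symbol after values of these tumors had been seen, and 7 of the 10 were among the 12091 genes measured: Acta1, Mylpf, Tnnt3, Tnni2, Tnnc2, Myh4 and Actn3. Ckm, Myl1 and Myh1 were not analysed here. Because the members were selected on their tumor values, those values and the differences between tumor groups are given as a description. Counts of members past a threshold in tumors are printed beside the share of all genes, and nothing is read from them.

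RNA was sequenced from 24 samples in 4 experiments, each with 3 control and 3 PTN-inhibited samples. The question was how gene expression differs when PTN is blocked or depleted. 4T1, a mammary carcinoma line, was implanted into the mammary fat pad of female BALB/c mice at an age of 8 weeks, and the mice received the anti-PTN antibody 3B10 (15 mg/kg, 2 doses a week) or the control antibody C44 once tumors could be felt. Female MMTV-PyMT mice (FVB/N), in which a mouse mammary tumor virus promoter drives polyoma middle T antigen mainly in mammary epithelium, received 3B10 or C44 from 8 to 12 weeks of age. E0771 mammary adenocarcinoma cells (C57BL/6), and the lung-derived, more metastatic E0771-LG line, carried a control shRNA (shCtrl) or one against Ptn (shPTN). In MMTV-PyMT tumors and cells the values were log2 RPM (reads of a gene scaled to 1 M reads on genes), from 15.56 to 21.01 M reads on genes per sample. Values of 4T1 tumors were on another log2 scale, normalized for gene length, with unknown depth, so levels were not compared between 4T1 and the other experiments.

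Skeletal muscle fibers contract when myosin heads of the thick filament pull on actin of the thin filament, within repeating units called sarcomeres that end at Z-discs. Calcium released from the sarcoplasmic reticulum binds the troponin complex and frees actin for myosin. Fast fibers use their own isoforms of these proteins, mammary epithelium is not known to build sarcomeres, and muscle of the body wall lies beneath the mammary fat pads.

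The labels were first checked against marker genes. Ptn itself had log2 values of 2.90, 2.18 and 2.28 in E0771 shCtrl samples and −0.63, 0.25 and 0.53 in E0771 shPTN samples. In E0771-LG cells its values were 3.65, 4.51 and 3.74 with shCtrl and 1.42, 0.98 and 1.38 with shPTN, so both shPTN groups lay below their controls. Epcam, an adhesion molecule of epithelium, was between 7.82 and 9.34 in 4T1 and between 9.94 and 10.56 in MMTV-PyMT tumors, as a log2 value. In the cells it was lower than in MMTV-PyMT tumors, between 2.66 and 3.81 in E0771 and between 3.81 and 4.60 in E0771-LG cells.

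By role, Acta1 is skeletal actin, the core of the thin filament, on which sit Tnnt3, Tnni2 and Tnnc2, the tropomyosin-binding, inhibitory and calcium-binding subunits of fast troponin. Myh4 is a fast myosin heavy chain and Mylpf its regulatory light chain. Actn3 crosslinks actin at the Z-disc of fast fibers. In GRCm38, Acta1 (ENSMUSG00000031972) lies at chr8:123891769-123894751 on the minus strand and Mylpf (ENSMUSG00000030672) at chr7:127208890-127214298 on the plus strand. Tnni2 (ENSMUSG00000031097, chr7:142441808-142444410) and Tnnt3 (ENSMUSG00000061723, chr7:142498836-142516009) are near each other on the plus strand. Myh4 (ENSMUSG00000057003) lies at chr11:67238029-67260446 on the plus strand, and Actn3 (ENSMUSG00000006457) at chr19:4861216-4877909 on the minus strand. Tnnc2 (ENSMUSG00000017300) lies at chr2:164777161-164779967 on the minus strand. Its exons share 592 of 800 bases (74%) with exons of Ube2c, a ubiquitin-conjugating enzyme of mitosis on the other strand. Whether reads were counted by strand is not stated, so reads of Tnnc2 and Ube2c may not have been told apart, and Tnnc2 is uncertain throughout. Exons of the other 6 members shared no base with another gene's exons. Of the 50-base words of the longest Myh4 transcript, 18.9% also occurred in other genes, with Myh1 holding the most (10.6%). That share was 55% for Tnnc2 (with Ube2c), 2.22% for Acta1, 0.0705% for Actn3, and 0 for Mylpf, Tnnt3 and Tnni2.

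Promoters of members are shown as a description, and whether they had a part in the member values was not tested. RefSeq promoters, from 250 bases before to 50 after the start site, matched 7 of the 10 members by symbol, and Tnnt3, Tnni2 and Actn3 had none. They were searched on both strands for the E-box CANNTG, which myogenic regulators bind, the TATA box TATAAA, the CArG box of serum response factor and the MEF2 consensus. A match is only a description of the letters. Of 32851 promoters of the same length, 72.3% held an E-box, 13.6% a TATA box, 1.63% a CArG box and 3.19% a MEF2 consensus. Among the 7 promoters of members, 6 held an E-box (Acta1, Ckm, Myl1, Mylpf, Tnnc2 and Myh4), 4 a TATA box (Acta1, Myl1, Myh4 and Myh1), 2 a CArG box (Acta1 and Myh4) and 2 a MEF2 consensus (Myh4 and Myh1). In Myh4 and Myh1 the MEF2 match overlaps a TATA box match on the other strand. The 4 promoters of measured members follow (RefSeq, GRCm38.p6, 5′ to 3′ along the gene), with all matches in capitals.
Acta1 (chr8:123894726-123895025, minus strand): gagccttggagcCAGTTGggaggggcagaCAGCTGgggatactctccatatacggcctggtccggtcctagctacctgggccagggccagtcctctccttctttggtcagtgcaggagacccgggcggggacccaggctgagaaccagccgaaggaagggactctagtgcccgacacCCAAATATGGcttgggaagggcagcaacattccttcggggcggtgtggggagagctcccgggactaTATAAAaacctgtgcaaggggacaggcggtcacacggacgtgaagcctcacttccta
Mylpf (chr7:127211358-127211657, plus strand): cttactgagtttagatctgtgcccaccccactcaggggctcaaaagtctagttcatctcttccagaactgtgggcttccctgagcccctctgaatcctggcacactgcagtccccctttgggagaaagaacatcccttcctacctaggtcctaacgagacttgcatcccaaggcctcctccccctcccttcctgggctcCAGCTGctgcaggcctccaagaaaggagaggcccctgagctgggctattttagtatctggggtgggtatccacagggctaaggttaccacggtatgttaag
Tnnc2 (chr2:164779685-164779984, minus strand): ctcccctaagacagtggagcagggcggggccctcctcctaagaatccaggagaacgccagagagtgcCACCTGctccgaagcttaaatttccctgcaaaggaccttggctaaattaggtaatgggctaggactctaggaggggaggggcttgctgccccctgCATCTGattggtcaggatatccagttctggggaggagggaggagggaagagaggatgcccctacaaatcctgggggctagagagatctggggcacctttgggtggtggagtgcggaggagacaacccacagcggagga
Myh4 (chr11:67237562-67237861, plus strand): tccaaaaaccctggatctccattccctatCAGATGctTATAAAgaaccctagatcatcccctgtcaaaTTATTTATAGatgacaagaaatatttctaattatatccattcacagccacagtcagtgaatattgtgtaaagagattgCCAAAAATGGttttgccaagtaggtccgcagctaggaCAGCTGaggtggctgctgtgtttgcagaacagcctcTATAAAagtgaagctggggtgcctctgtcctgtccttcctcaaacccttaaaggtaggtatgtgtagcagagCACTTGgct

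In 4T1 tumors, the members were higher in mice given 3B10 than in mice given C44 by their group means. Acta1 had log2 values of 1.23, −0.53 and −0.44 in the C44 replicates and 3.49, 6.25 and 6.06 in the 3B10 replicates. The 3B10 tumors all lay above the C44 tumors, with replicate 1 lowest among them. The group means were 0.09 ± 0.99 and 5.27 ± 1.54 (SD, n = 3 each), a log2 difference of 5.18 (SE 0.79 from limma).

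Of the fast troponin subunits, Tnni2 and Tnnt3 were the members with the highest levels in control tumors. Tnni2 was 4.31, 4.11 and 5.08 with C44 and 5.16, 5.14 and 6.37 with 3B10, and the groups were separated by a narrow gap. Tnnt3 was 3.11, 3.47 and 4.60 with C44 and 4.44, 5.90 and 7.23 with 3B10. Its groups overlapped, since 3B10 replicate 1 lay below C44 replicate 3. Tnnc2 was −0.03, −0.70 and 0.18 with C44 and 2.09, 4.54 and 6.20 with 3B10, with no overlap. The log2 differences were 1.06 for Tnni2 (SE 0.38), 2.13 for Tnnt3 (SE 0.68) and 4.46 for Tnnc2 (SE 0.91). Without 3B10 replicate 3, the difference of Tnni2 was 0.65. Ube2c, which overlaps Tnnc2, was 5.49, 5.52 and 5.33 with C44 and 5.76, 6.25 and 6.42 with 3B10. It too was higher in each 3B10 tumor, and its part in the Tnnc2 values was not tested.

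Of the thick filament, Mylpf was 1.71, 0.59 and 1.89 with C44 and 2.94, 4.95 and 4.48 with 3B10. Myh4 was −0.89, −0.98 and −0.98 with C44, where −0.98 is the lowest value of a sample, and −0.24, 0.94 and 4.11 with 3B10. Neither gene had overlapping groups, but Myh4 reached more than a low level in 3B10 replicate 3 alone. At the Z-disc, Actn3 was −0.16, −0.47 and −0.56 with C44 and 1.01, 3.61 and 3.83 with 3B10, again without overlap. The log2 difference was 2.73 for Mylpf (SE 0.56), 3.21 for Actn3 (SE 0.69) and 2.55 for Myh4, which did not pass the filter on low values.

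**Figure D1:**
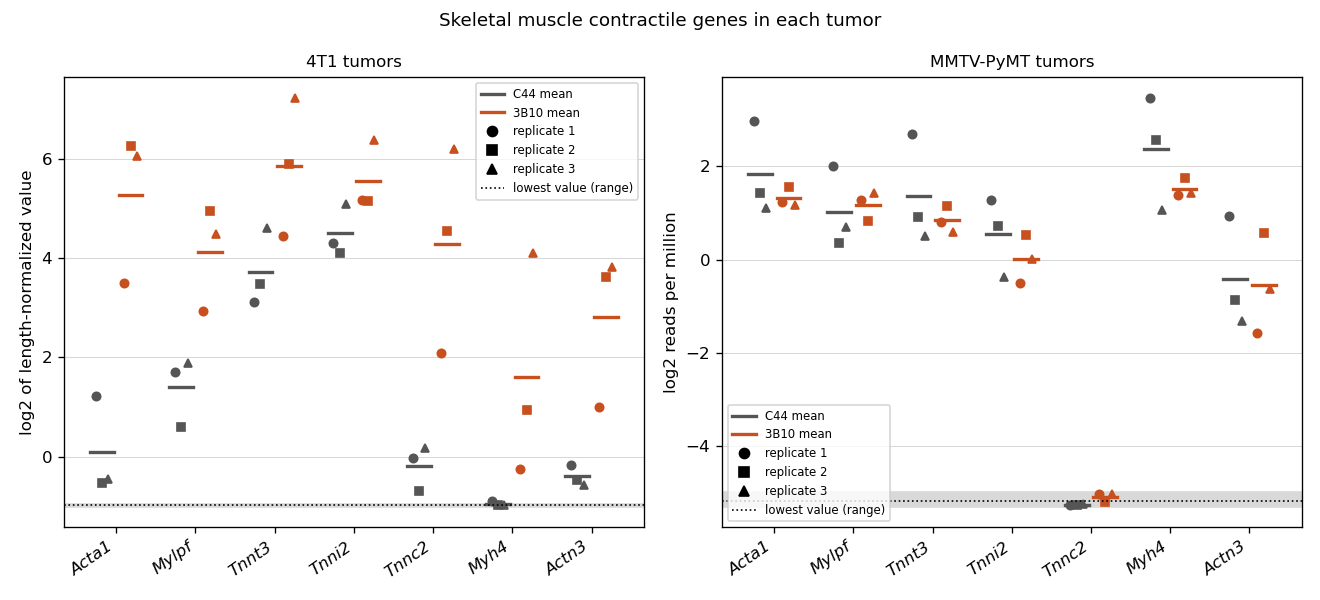
Log2 value of each of the 7 measured members (x axis) in each tumor, on the length-normalized scale of 4T1 tumors (left) and as log2 RPM in MMTV-PyMT tumors (right), where points are tumors, short lines are means of 3, and the gray band spans the lowest values of the samples. In 4T1, 3B10 tumors lie above C44 tumors except for an overlap in Tnnt3, whereas in MMTV-PyMT the tumor C44 replicate 1 is highest for 6 members and Tnnc2 lies at the lowest value.

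Of the 7 members, 6 passed the filter on low values in 4T1 tumors (at least 1 above the lowest value, off the log scale, in at least 3 of 6 samples). Myh4 did not. Among the 6 that passed, 5 of 6 had no overlap with 3B10 higher, beside 6.87% of the 11467 genes tested. Of these, Tnnc2 and Actn3 passed the filter through the 3B10 tumors alone, so their lack of overlap followed from the filter. The count was 4 with median of ratios scaling and 4 with quantile scaling. None had no overlap with 3B10 lower, beside 4.42% of genes. With limma and Benjamini-Hochberg adjustment over all genes tested, 0 of the 6 members were called at an adjusted p under 0.05, beside 0% of genes (0 of 11467). At an unadjusted p under 0.05 the count was 6 of 6 members, beside 6.27% of genes. Since the members were selected on this contrast, nothing is read from these counts. The median log2 difference of the 6 members was 2.97, against 0.01 over all genes tested, and it was 2.73 without Tnnc2, a choice made after seeing the data. In bulk tissue, fewer cells of a type and less RNA per cell cannot be told apart.

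The 4T1 tumors differed within the 3B10 group as well. The mean log2 value of the 7 members was 1.33, 0.78 and 1.40 in the C44 replicates and 2.70, 4.48 and 5.47 in the 3B10 replicates. Replicate 3 of 3B10 was the highest of the 6 tumors for 4 of the 6 members tested, as it was for 23.1% of all genes, and replicate 2 for the other 2, as for 19.1% of genes. Leaving out 3B10 replicate 2 or 3 lowered the number of members without overlap from 5 to 3, as Tnnc2 and Actn3 then no longer passed the filter. The share of all genes then tested without overlap and with 3B10 higher was 11% without replicate 2 and 8.82% without replicate 3. Without 3B10 replicate 3, the median log2 difference was 2.00. Between pairs of members, Pearson r over the 6 tumors ran from 0.724 to 0.979, with a median of 0.895 over 21 pairs. These r values describe tumors that share their treatment groups.

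Levels could be ordered between genes in 4T1 tumors, since the values are per length. In C44 tumors, the median level off the log scale was highest for Tnni2 (19.3) and Tnnt3 (10.6), followed by Mylpf (2.76), Tnnc2 (0.47), Acta1 (0.232), Actn3 (0.213) and Myh4 (0). Here Tnni2 and Tnnt3 overlapped, as did Tnnc2 with Acta1 and Acta1 with Actn3, and the other neighbors in the order did not. In 3B10 tumors the order was Acta1 (66.1), Tnnt3 (59.4), Tnni2 (35.4), Tnnc2 (22.7), Mylpf (21.9), Actn3 (11.7) and Myh4 (1.41), and each neighboring pair overlapped. Acta1 was thus below both Tnni2 and Tnnt3 in each C44 tumor and had the highest median with 3B10. Syt8, a synaptotagmin gene that ends 1412 bases before the start of Tnni2 on the same strand, was between 6.10 and 7.45 on the log2 scale in the 6 tumors.

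Other genes of the muscle fiber were followed in lists named for processing. Of all genes tested in 4T1 tumors, 6.87% had no overlap with 3B10 higher and 4.42% with 3B10 lower. These shares are the background of each list count in 4T1 tumors. The table held 8 of 32 further genes of the fast sarcomere, of which 6 were tested in 4T1 tumors, and 2 of the 6 had no overlap, both with 3B10 higher. Des, the intermediate filament of muscle, was 1.93, 2.69 and 2.16 with C44 and 2.75, 4.70 and 4.83 with 3B10. Pdlim3, a Z-disc protein, was −0.68, −0.98 and −0.59 with C44 and 0.72, 2.40 and 2.60 with 3B10. In both, 3B10 replicates 2 and 3 were highest. Pdlim3 passed the filter through the 3B10 tumors alone, so its lack of overlap followed from the filter and nothing is read from it. The most abundant genes of the list, Tpm1 (6.94 to 7.49), Cryab (5.55 to 6.21) and Tpm2 (4.31 to 6.08), had overlapping groups, and they are also expressed outside skeletal muscle. The median log2 difference of the 6 genes was 0.51.

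For excitation and calcium handling, 4 of 23 genes were held and 3 tested, with 1 of the 3 free of overlap and a median difference of 0.21. This was Atp2a1, the calcium pump of fast fibers, at 0.27, −0.84 and −0.67 with C44 and 0.69, 3.55 and 4.72 with 3B10. Atp2a1 passed the filter through the 3B10 tumors alone, so its lack of overlap followed from the filter and nothing is read from it. Ryr1, the calcium release channel, did not pass the filter in 4T1 tumors, with values of −0.59, −0.53 and −0.57 with C44 and −0.41, 1.31 and 1.25 with 3B10. Of muscle energy metabolism, 11 of 23 genes were held and 9 tested, with a median difference of 0.00. Of the 9, 2 had no overlap, both higher with 3B10: Mb, the oxygen carrier myoglobin (1.43, 2.01 and 2.05 with C44, and 3.49, 4.78 and 2.31 with 3B10), and Eno3, the muscle enolase (6.88, 6.92 and 6.74, and 7.25, 7.35 and 7.55). Ldha, the most abundant gene of that list, was between 9.67 and 10.35 with overlapping groups.

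Of 18 slow and cardiac genes listed, 4 were held and tested, with 1 free of overlap and a median difference of 0.18. Tnnt2, the cardiac troponin T, was 5.81, 6.28 and 6.32 with C44 and 6.44, 6.78 and 6.53 with 3B10. Among myogenic regulators and satellite cell genes, 9 of 21 were held and 8 tested, with a median difference of 0.09. The defining regulators Myod1, Myf5, Myog and Pax7 were not analysed here. Eya1, a transcriptional coactivator of muscle precursors, was 2.79, 2.96 and 2.86 with C44 and 3.08, 3.11 and 3.46 with 3B10, with no overlap. No gene of these lists was called in 4T1 tumors, where limma called 0 of 11467 genes.

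**Figure D2:**
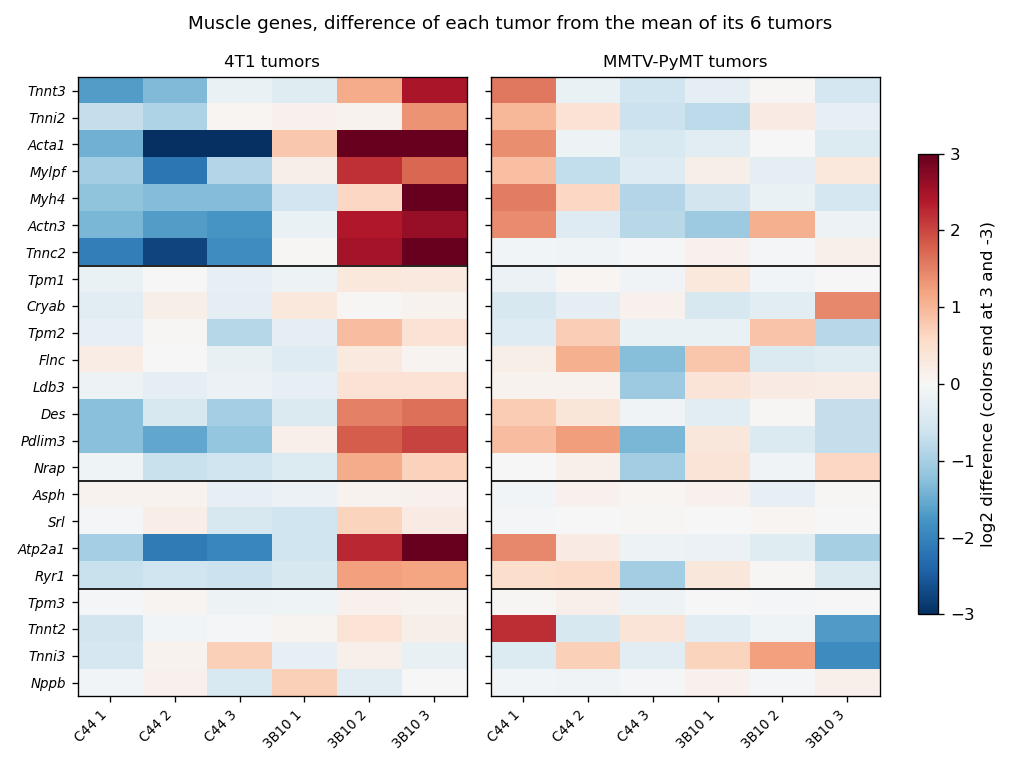
Log2 value of each gene (y axis) in each tumor (x axis) less the gene's mean over the 6 tumors of its model, for the 7 measured members (top block) and further genes of the fast sarcomere, of excitation and calcium handling, and of the slow and cardiac sarcomere (lower blocks), with colors that end at differences of 3 and −3. In 4T1, Des, Pdlim3 and Atp2a1 are highest in 3B10 replicates 2 and 3, as are the members other than Tnni2. In MMTV-PyMT, Tnnc2 is at 0 reads and varies with depth alone.

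No marker of another cell type was called in 4T1 tumors, and the values are a description. Of 13 leukocyte markers, 10 were held and tested, and all 10 had a negative difference with a median of −0.75. Without overlap and with 3B10 lower were 5 (Ptprc, Cd3e, Cd3g, Itgam and Cd68), beside 4.42% of all genes tested. Ptprc, the pan-leukocyte phosphatase, was 4.67, 4.74 and 4.36 with C44 and 3.70, 4.21 and 3.70 with 3B10. The summed level of the list, off the log scale, was 10056, 7098 and 9660 in the C44 replicates and 4074, 6776 and 4330 in the 3B10 replicates. Its most abundant gene was Lyz2, the lysozyme of myeloid cells, and no marker was at the lowest value in all 6 tumors. The sum of each C44 tumor exceeded that of each 3B10 tumor.

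Of 11 markers of mammary epithelium and tumor cells, 10 were held and 7 tested, and all 7 had a positive difference with a median of 0.47. Without overlap and with 3B10 higher were 3 (Epcam, Krt8 and Krt18), beside 6.87% of all genes tested. The summed level of the 10 held was 3259, 3522 and 3495 in the C44 replicates and 4805, 4492 and 5177 in the 3B10 replicates, with Krt18, a keratin of simple epithelium, the most abundant. The milk protein gene Csn2 and the luminal factor Elf5 were at or near the lowest value in 4T1 tumors, at most −0.78 and −0.86. The part of these cell types in the member values was not tested.

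Adipocyte markers, which could come with tissue of the fat pad, were held for 3 of 15 genes and had overlapping groups. Their median difference was 0.51. Their summed level was 12.2, 41.6 and 52.6 in the C44 replicates and 29.9, 36.6 and 37.3 in the 3B10 replicates, with Fabp4 the most abundant. Adipoq and Plin1 were not analysed here. Of smooth muscle and myoepithelial markers, 13 of 15 were held and 10 tested, with a median difference of 0.08 and 1 free of overlap. This was Krt14, a basal keratin, at 3.51, 4.70 and 3.81 with C44 and 7.30, 6.70 and 5.09 with 3B10. Summed levels of this list were 641, 810 and 298 in the C44 replicates and 633, 954 and 590 in the 3B10 replicates, with Tagln the most abundant by mean. Among the 3B10 tumors, Krt14 was highest in replicate 1, where the mean of the members was lowest. Fibroblast markers (9 of 10 held) had a median difference of 0.26 and endothelial markers (8 of 10) one of −0.16, with 1 of 9 and 0 of 8 free of overlap. Summed levels were 1686, 2402 and 1499 in the C44 replicates and 1327, 4758 and 2150 in the 3B10 replicates for fibroblasts, with Col1a1 the most abundant by mean, and 153, 385 and 250 in the C44 replicates and 211, 329 and 147 in the 3B10 replicates for endothelium, with Cdh5 the most abundant by mean. Nerve markers (6 of 11 held, 4 tested) had a median difference of −0.12 and none without overlap. The 1 skin marker held of 13, Sbsn, ranged from 0.82 to 2.11. Whether any of these cell types had a part in the member values was not tested.

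The genes most like the members were taken as the 10 with the highest Pearson r to the mean of the 7 members over the 6 4T1 tumors. They were Thoc1 (0.999), Nup85 (0.998), Lsm2 (0.994), Cenpa (0.994), Klhdc3 (0.994), Pttg1 (0.991), Pdlim3 (0.991), Noa1 (0.99), Nudcd2 (0.989) and Gemin6 (0.989). Pdlim3 is the only muscle protein among these 10. Thoc1 and Nup85 take part in mRNA export and the nuclear pore, Cenpa is the histone of centromeres and Pttg1 is securin, which holds sister chromatids together. Apart from Pdlim3, with a range of 3.58, they varied over at most 1.01 on the log2 scale. Thoc1 was 5.07, 5.02 and 5.09 with C44 and 5.18, 5.34 and 5.43 with 3B10, a range of 0.41. Pttg1 was 5.21, 5.25 and 5.30 with C44 and 5.63, 6.08 and 6.22 with 3B10, a range of 1.01. With 6 tumors and 11461 genes ranked, such values of r are a description. Another 3 genes had an r as far below 0.

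**Figure D3:**
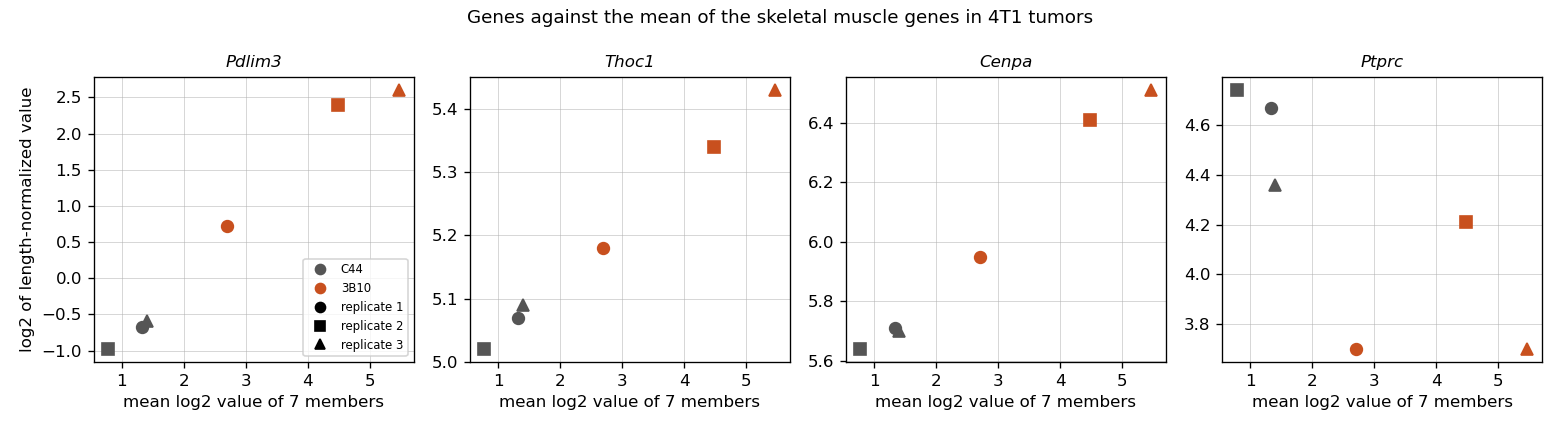
Log2 value of Pdlim3, Thoc1, Cenpa and Ptprc (y axes, with differing ranges) against the mean log2 value of the 7 measured members (x axis) in the 6 4T1 tumors, where colors mark the antibody and shapes the replicate. Pdlim3, Thoc1 and Cenpa are among the 10 genes most like the members, and Ptprc is lower in the 3B10 tumors.

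In MMTV-PyMT tumors, members did not separate by antibody, and a single control tumor held the highest values. Acta1 had log2 values of 2.96, 1.42 and 1.11 in the C44 replicates, from 149, 51 and 40 reads, and 1.24, 1.56 and 1.17 in the 3B10 replicates, from 38, 54 and 36 reads. C44 replicate 1 stood above all others and the groups overlapped. The group means were 1.83 ± 0.99 and 1.32 ± 0.21 (SD, n = 3 each), a log2 difference of −0.51 (SE 0.51).

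Of the troponin subunits, Tnnt3 was 2.69, 0.92 and 0.50 with C44 and 0.81, 1.14 and 0.59 with 3B10. Tnni2 was 1.28, 0.71 and −0.37 with C44 and −0.50, 0.52 and 0.02 with 3B10. Their groups overlapped, and both differences were −0.52 (SE 0.59 for Tnnt3 and 0.55 for Tnni2). Tnnc2 had 0 reads in all 6 tumors, which allows up to 0.185 RPM in the shallowest of them (3 reads of the total, counting error only). Ube2c, which overlaps it, was 5.93, 5.95 and 5.94 with C44 and 6.25, 6.46 and 6.27 with 3B10. Its part in the Tnnc2 values was not tested.

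Myh4 was 3.47, 2.56 and 1.07 with C44, from 212, 113 and 39 reads, and 1.38, 1.74 and 1.42 with 3B10, from 42, 61 and 43 reads. Mylpf was 2.00, 0.35 and 0.70 with C44 and 1.28, 0.82 and 1.42 with 3B10. Actn3 was 0.93, −0.87 and −1.32 with C44 and −1.57, 0.58 and −0.63 with 3B10, from 5 to 36 reads, and did not pass the filter. All 3 genes had overlapping groups, with C44 replicate 1 highest. The difference was −0.85 for Myh4 (SE 0.57) and 0.16 for Mylpf (SE 0.50).

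Of the 7 members, 5 passed the filter in MMTV-PyMT tumors. Without overlap between groups were 0 of the 5 with 3B10 higher, beside 6.06% of 11361 genes tested, and 0 with 3B10 lower, beside 2.27%. With limma 0 of the 5 were called at an adjusted p under 0.05, beside 0% of genes (0 of 11361), and 0 at an unadjusted p under 0.05, beside 2.7% of genes. As in 4T1, the members were selected on this contrast, and nothing is read from these counts. The median log2 difference was −0.52, against 0.05 over all genes tested.

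C44 replicate 1 was the highest of the 6 tumors for 5 of the 5 members tested, and for 14.7% of all genes tested. With it left out, Mylpf had no overlap with 3B10 higher, beside 13.6% of the genes then tested. With C44 replicate 3 left out, Tnni2 and Myh4 had no overlap with 3B10 lower, beside 6.35% of genes. Without C44 replicate 1, the median difference of the members changed sign, to 0.10, and the differences became 0.06 for Acta1, 0.13 for Tnnt3, 0.65 for Mylpf and −0.30 for Myh4. Without C44 replicate 3, the median was −0.96, and the differences were −0.87 for Acta1, −0.96 for Tnnt3, −0.98 for Tnni2 and −1.50 for Myh4. That of Tnni2 was −0.27 without 3B10 replicate 1 and −0.32 with a pseudocount of 1. The depth of C44 replicate 1, 19.06 M reads on genes, was within the range of the C44 group, 18.69 to 19.18 M, while the 3B10 group had 16.2 to 18.36 M. Pearson r between pairs of the 6 members with reads ran from 0.267 to 0.997 over the 6 tumors, with a median of 0.793 over 15 pairs. These tumors share their treatment groups, and C44 replicate 1 is the highest of them for each of the 6 members.

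Per kilobase of exon, the median level in C44 tumors was 1.72 RPM for Acta1, 1.51 for Mylpf, 1.18 for Tnnt3, 1.08 for Tnni2, 0.976 for Myh4, 0.179 for Actn3 and 0 for Tnnc2. Each neighboring pair in this order overlapped except Actn3 and Tnnc2. With 3B10 the order was Mylpf (2.25), Acta1 (1.52), Tnnt3 (1.09), Tnni2 (0.657), Myh4 (0.44), Actn3 (0.212) and Tnnc2 (0), where only Acta1 and Tnnt3, and Actn3 and Tnnc2, did not overlap. Acta1 and Mylpf were the top pair in both groups.

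Other muscle genes in MMTV-PyMT tumors were mixed. Of all genes tested there, 6.06% had no overlap with 3B10 higher and 2.27% with 3B10 lower, the background of each list count in these tumors. Atp2a1 was 2.69, 1.50 and 1.11 with C44 and 1.08, 0.90 and 0.26 with 3B10, lower in each 3B10 tumor. Mb was 3.65, 3.13 and 3.31 with C44 and 2.99, 2.82 and 2.60 with 3B10, also without overlap. Des was 2.17, 1.79 and 1.31 with C44 and 1.08, 1.45 and 0.70 with 3B10, with overlap. C44 replicate 1 was the highest tumor for these 3 genes, as for the members. Other genes of the muscle lists went the other way. That tumor was the lowest for Tpm1 (8.29), Cryab (4.23) and, among myogenic regulators, Fbxo32 (6.94), and Tpm2 and Pdlim3 were not highest there. Of the further fast sarcomere genes, 7 of the 8 held were tested, and 1 of the 7 had no overlap, Ldb3, a Z-disc protein, at 5.82, 5.81 and 4.62 with C44 and 6.09, 5.96 and 5.94 with 3B10. Medians of the differences were 0.02 for that list, −0.02 for slow and cardiac genes, −0.05 for excitation and calcium handling, −0.11 for energy metabolism and 0.08 for myogenic regulators. Of the last list, 1 of 7 tested had no overlap, Six4, a homeobox factor, at 3.02, 2.87 and 3.23 with C44 and 3.41, 3.59 and 3.81 with 3B10. No gene of any list was called, as limma called 0 of 11361 genes.

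Among other cell types, the 3 adipocyte markers held had a median difference of 1.13 in MMTV-PyMT tumors, and 2 of the 3, Lpl and Cfd, had no overlap, with 3B10 higher. Their summed level was 27.4, 34.8 and 16.4 in the C44 replicates and 97.8, 35.6 and 38.4 in the 3B10 replicates, with Lpl the most abundant by mean. Medians were −0.04 for leukocyte (8 of 10 tested), −0.04 for smooth muscle and myoepithelial (13 of 13), −0.18 for fibroblast (9 of 9), 0.03 for endothelial (8 of 8), −0.03 for nerve (6 of 6) and −0.07 for mammary markers (10 of 10). Of these, only the nerve list had a gene without overlap, Prx, a protein of myelinating Schwann cells. Summed levels of leukocyte markers were 400, 430 and 224 in the C44 replicates and 516, 244 and 287 in the 3B10 replicates, with Lyz2 the most abundant. Those of mammary markers were 15344, 15698 and 20354 in the C44 replicates and 12793, 18704 and 12747 in the 3B10 replicates, of which Csn3, a milk protein gene, made up 50.8% to 77.8%. C44 replicate 1 was within the range of the other 5 tumors in both sums. Of the 10 mammary markers, Krt18, Krt8, Epcam and Cdh1 were highest of the 6 tumors in C44 replicate 1, and Mki67 and Csn2 were lowest there. Their r with the mean of the members over the 6 tumors ran from −0.806 for Mki67 to 0.819 for Krt18. The part of other cell types in the values of this tumor was not tested.

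The genes most like the members in MMTV-PyMT tumors were Ndufa4l2 (r = 0.987), Ccbe1 (0.981), Os9 (0.98), Psmf1 (0.975), Psme1 (0.975), Tspo (0.973), Tmem176b (0.972), Rnh1 (0.972), Gpihbp1 (0.965) and Vkorc1 (0.965). None of these 10 was among the 10 of the 4T1 tumors, and none belongs to the sarcomere. Ndufa4l2, a mitochondrial protein induced in low oxygen, was 2.32, 0.88 and 0.44 with C44 and 0.76, 1.40 and 0.86 with 3B10, with C44 replicate 1 highest. Over these 6 tumors, another 41 of 11356 genes had an r as far below 0.

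The members were selected on the tumors, though with earlier results of these data known, and those that passed the filter were tested in the cultured cells. Most members were at or near 0 reads. Myh4 had 0 reads in all 12 cell samples, Tnnt3 between 0 and 3 reads, Tnni2 and Tnnc2 between 0 and 2. In the MMTV-PyMT tumors, on the same scale, Myh4 had 39 to 212 reads, Tnnt3 24 to 123 and Tnni2 11 to 46. Acta1, Mylpf and Actn3 had reads in all 12 cell samples.

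Actn3 was higher in E0771 cells with shPTN. Its log2 values were 1.97, 2.50 and 1.86 with shCtrl, from 67, 115 and 60 reads, and 3.67, 3.52 and 3.69 with shPTN, from 246, 206 and 201 reads. The groups did not overlap, and all 3 shPTN samples exceeded the control mean. The difference was 1.52 (SE 0.21, limma adjusted p = 0.000892), a fold of 2.86. Over alternatives its adjusted p ranged from 0.000373 to 0.234, the latter in a fit of all 24 samples. In E0771-LG cells, Actn3 had 1, 10 and 5 reads with shCtrl and 26, 7 and 13 with shPTN and was not tested for its low values. The difference in effect between the lines was 0.11 (SE 0.80, limma adjusted p = 0.927, 12 samples), which did not pass. Over alternatives it ran from −0.86 with a pseudocount of 1 (limma adjusted p = 0.0421) to 0.69, below 0 in 6 of 20, with adjusted p up to 0.969, so its direction was not determined.

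Acta1 moved in opposite directions in the cell lines. In E0771 cells it had 3, 7 and 2 reads with shCtrl and 12, 24 and 12 with shPTN, mean log2 values of −2.16 ± 0.66 and −0.17 ± 0.55 (SD, n = 3 each), and it did not pass the filter. In E0771-LG cells it had 79, 58 and 42 reads with shCtrl and 20, 30 and 27 with shPTN, mean log2 values of 1.66 ± 0.51 and 0.46 ± 0.44. The difference in E0771-LG cells was −1.20 (SE 0.40, limma adjusted p = 0.0292), lower in 3 of 3 samples. Leaving out shCtrl replicate 1, shPTN replicate 1 or shPTN replicate 3 ended this call (adjusted p = 0.0954, 0.0875 and 0.0531 with limma), and alternatives ranged from 0.00433 to 0.138. The effect in E0771-LG less that in E0771 cells was −3.19 (SE 0.72, limma adjusted p = 0.00413, 12 samples). Under the 20 alternatives in which it was tested, the adjusted p was between 0.00294 and 0.0123, but the size depended on the pseudocount, at −1.45 with a pseudocount of 1.

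Mylpf was low in both lines, with 23, 25 and 49 reads in E0771 shCtrl, 26, 13 and 19 in E0771 shPTN, 13, 10 and 6 in E0771-LG shCtrl and 22, 22 and 18 in E0771-LG shPTN samples. The differences were −0.66 (SE 0.45, limma adjusted p = 0.332) and 1.09 (SE 0.54, limma adjusted p = 0.121), and neither passed. Their sizes depended on the processing. The E0771 difference was −0.26 without shCtrl replicate 3, −0.39 without shPTN replicate 2 and −0.40 with a pseudocount of 1, and the E0771-LG difference was 0.47 with a pseudocount of 1 and 0.52 with quantile scaling. The effect in E0771-LG less that in E0771 was 1.75 (SE 0.69, limma adjusted p = 0.0628, 12 samples), and 0.86 with a pseudocount of 1.

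Thus 2 of 7 members were tested in each line, though Mylpf passed the filter in E0771-LG cells through shPTN samples alone. The count called was 1 of 2 in E0771 (Actn3), beside 20.6% of 10394 genes, and 1 of 2 in E0771-LG cells (Acta1), beside 46.4% of 10405 genes. For the difference between lines, 1 of 3 members was called (Acta1), beside 34% of 10600 genes. These shares of all genes are the background of the counts, and no difference from it was tested.

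**Figure D4:**
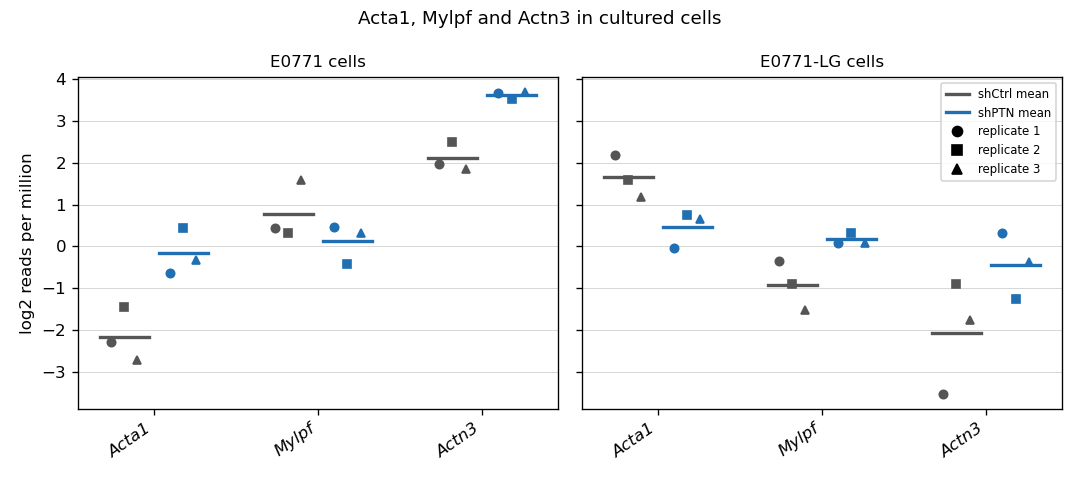
Log2 RPM (y axis) of Acta1, Mylpf and Actn3 (x axis) in E0771 cells (left) and E0771-LG cells (right) with shCtrl or shPTN, where points are samples and short lines are means of 3. Actn3 is higher with shPTN in E0771 cells, at 3.52 to 3.69, and Acta1 is higher with shPTN in E0771 and lower in E0771-LG cells.

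Other muscle genes in the cells were read against the same background. Of the further fast sarcomere genes, all 8 held were tested, 7 rose and 0 fell in E0771 cells, and 2 rose and 0 fell in E0771-LG cells. In E0771 cells, Des rose from a mean log2 value of 1.96 to 3.28, Tpm1 from 8.61 to 9.67 and Nrap from 3.70 to 4.33, and in E0771-LG cells Nrap rose from 1.79 to 3.09 and Tpm2 from 6.58 to 6.91. Markers of other cell types moved too. In E0771 cells 5 of 5 fibroblast markers tested were called higher, with a median difference of 1.61 against 0.79 for the fast sarcomere list, and the 9 of 10 held summed to 74.8, 101 and 86.5 RPM with shCtrl and 331, 293 and 330 RPM with shPTN, with Col3a1 the most abundant. In E0771-LG cells 1 of 6 fibroblast markers tested was called higher and 2 lower, and they summed to 92, 145 and 107 RPM with shCtrl and 58.3, 66.3 and 73.8 RPM with shPTN, with Pdgfra the most abundant and Thy1 at 0 reads in all 6. Of mammary markers, 0 of 4 tested were called in E0771 cells. In E0771-LG cells 4 of 5 were called higher, with a median difference of 1.57, and the 10 held summed to 187, 313 and 276 RPM with shCtrl and 606, 759 and 704 RPM with shPTN, with Krt8 the most abundant and Elf5, Csn2 and Lalba at 0 reads in all 6. Leukocyte and endothelial markers were called higher for 1 of 3 each in E0771, and for 2 of 3 and 2 of 4 in E0771-LG cells. The part of these markers in the muscle gene values was not tested. Among smooth muscle genes, Acta2, the smooth muscle actin, rose from 4.95 to 7.32 in E0771 cells and fell from 5.16 to 2.90 in E0771-LG cells, the directions of Acta1. Actg2, another smooth muscle actin, did the same, from −2.41 to 0.98 in E0771 and from 3.67 to 2.97 in E0771-LG cells. That list had 5 called higher and 0 lower of 7 tested in E0771, and 1 higher and 3 lower of 7 in E0771-LG cells. Of those higher in E0771, Actg2 (−2.41), Lmod1 (−1.02) and Trp63 (−1.94) had control means under the filter limit of 1 RPM. They passed the filter through shPTN samples, so their calls depended on it. The same held for Col1a2 in E0771 and for Krt17, Mef2c, Dcn and Krt18 in E0771-LG cells, and in reverse for the lower calls of Cnn1 and Col1a1. Of myogenic regulators and satellite cell genes, 3 were called higher and 0 lower of 7 tested in E0771, and 3 higher and 2 lower of 8 in E0771-LG cells. Trim54, a muscle ring finger protein, and Ncam1, an adhesion molecule, rose in both lines, Mef2c rose and Mef2a fell in E0771-LG cells, and Eya1 rose in E0771 and fell in E0771-LG cells. Of slow and cardiac genes, 0 of 2 tested were called in each line. For excitation and calcium handling, 2 of 3 rose in E0771, and 1 of 3 fell in E0771-LG cells.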

How the data were processed

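Total RNA of 12 tumors and 12 cell samples was sequenced (3 per group). By the submitters' notes, HISAT2 (alignment to mm10, GRCm38), featureCounts, limma and edgeR were used, with no versions given, and the study's methods also name StringTie and Rsubread. The authors deposited log2 values of 12091 genes in 24 samples, and how these log2 values were made is not stated. In the 18 samples other than 4T1 tumors, 100% of low values fell on whole reads (within 0.01 read) above an offset of 0.5 reads, and those reads gave the depths. In 4T1 samples at most 1.99% did, and 4T1 less E0771-LG values went down as genes got longer (slope per log2 of exon length −0.642 over 10095 genes, against 0.132 for MMTV-PyMT and 0.162 for E0771), so 4T1 values were taken as length-normalized.

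Members, lists and the rule for named genes were chosen with earlier results of these data known. Named are all members, at most 6 genes of a list by mean over the 12 tumors (others, such as Pdlim3, Eno3, Mb, Eya1, Trim54, Nrap and Actg2, were named after their values were seen), and in each tumor model the 10 genes with the highest correlation to the mean of members. The planned comparison of Myh1 and Myh4 proteins was not made. The lists were further fast sarcomere, slow and cardiac sarcomere, excitation and calcium handling, energy metabolism, myogenic regulators, smooth muscle and myoepithelium, adipocyte, skin, nerve, endothelial, leukocyte, fibroblast, and mammary epithelium.

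Each experiment was fitted alone across all genes with limma 3.58.1 in R 4.3.3 (eBayes with trend and robust) on the deposited log2 values, for genes that, off the log scale, exceeded the sample's lowest value by 1 or more in 3 or more of the 6 samples. Count tests planned for raw counts were not used, because the unit was log2. The difference between cell lines was an interaction term over 12 samples. P-values were adjusted by Benjamini-Hochberg over all genes tested. The fit was also run on simulated data with 200 changed genes, and no result given here rests on that run. The study calls its replicates biological and does not say whether the cell samples were separate cultures, so p-values for cells measure the spread between samples, which may be technical. Alternatives were other filters, 1 fit of 24 samples, eBayes not robust, pseudocounts of 1 and 0.1, median of ratios and quantile scaling, voom on recovered reads, a replicate block, and leaving out each sample. Positions, exon lengths and transcripts came from GENCODE M21 (GRCm38), and plots from Python 3.11.15 with pandas 2.3.3, numpy 2.4.6 and matplotlib 3.10.9.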

Additional observations from a re-analysis of the deposited data

Results flagged for a closer look

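In each of Acta1, Tnnt3, Tnni2 and Myh4, all 3 3B10 tumors lay above the mean of the C44 tumors in 4T1 and all 3 lay below it in MMTV-PyMT, where the groups overlapped. The log2 difference between 3B10 and C44 in 4T1 exceeded that in MMTV-PyMT by 5.69 for Acta1, 2.66 for Tnnt3, 1.58 for Tnni2 and 3.41 for Myh4. These differences between the models were not tested, because the members were selected on these contrasts, and the values are on unlike scales. Without C44 replicate 1, the MMTV-PyMT differences were 0.06 for Acta1, 0.13 for Tnnt3 and −0.30 for Myh4, and Tnni2 did not pass the filter.

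In the cell lines, all 3 shPTN samples lay above the control mean for Acta1 in E0771 and below it in E0771-LG cells, a log2 difference in effect of 3.19 (E0771 less E0771-LG), which passed the interaction test of limma (adjusted p = 0.00413). For Mylpf, shPTN samples lay below the control mean in E0771 and above it in E0771-LG cells, but Mylpf passed in neither line (limma adjusted p = 0.332 and 0.121). Its groups overlapped in E0771 cells. The difference in effect, −1.75, did not pass the interaction test (adjusted p = 0.0628 with limma).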

How the results depend on the processing

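In a fit of all 24 samples, the count of called members was 0 in E0771 cells (Actn3, limma adjusted p = 0.234), beside 8.77% of genes, and 0 in E0771-LG cells (Acta1, limma adjusted p = 0.138), beside 39.6%. It was 2 in 4T1 tumors, beside 0.0523% (6 of 11467 genes), from which nothing is read since the members were selected on that contrast. Without a filter, 2 members were called in E0771 cells, Actn3 and Acta1 (limma adjusted p = 0.0296 for Acta1), beside 15.5% of 12091 genes. Leaving out 1 sample gave 0 to 1 called members in E0771-LG cells, beside 31.1% to 49.3% of genes. It gave 3 to 6 members without overlap in 4T1, all with 3B10 higher, beside 8.82% to 19.4% of genes, and 0 to 2 in MMTV-PyMT tumors, beside 9.51% to 13.6% of genes with 3B10 higher and 5.19% to 6.35% with 3B10 lower. Where Tnnc2 and Actn3 were among those in 4T1, their lack of overlap followed from the filter. Medians were 2.00 to 3.11 in 4T1 and −0.96 to 0.10 in MMTV-PyMT tumors. The difference of Actn3 between the lines, 0.11, was below 0 in 6 of 20 alternatives and ran from −0.86 (pseudocount of 1, limma adjusted p = 0.0421) to 0.69, so its direction was not determined. That of Mylpf passed without E0771-LG shCtrl replicate 1, at 2.04 (limma adjusted p = 0.0358). The cause was not tested. No scaling moved the median of all genes by over 0.05. The alternatives for overlap and for differences between lines were added after seeing the data.

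In 4T1 tumors, the log2 differences of single members stayed above 0 under all alternatives run, but some sizes depended on the pseudocount. With pseudocounts of 1 and 0.1, the difference was 4.61 and 6.06 for Acta1, 3.87 and 5.39 for Tnnc2 and 2.63 and 4.20 for Actn3. It was 2.51 and 2.96 for Mylpf, 2.09 and 2.17 for Tnnt3 and 1.04 and 1.07 for Tnni2. The median was 2.57 and 3.58. In MMTV-PyMT tumors, the sign changed for Acta1 (−0.51 to 0.06) and Tnnt3 (−0.52 to 0.13) without C44 replicate 1, and for Mylpf (0.16 to −0.18) without C44 replicate 2, with 0.00 for Mylpf without C44 replicate 3. For tests of single genes in cells, 111 of 118 kept their direction and their side of the threshold, or stayed short of it. With a mean of at least 5 as the filter, no member was left in MMTV-PyMT tumors or E0771-LG cells, so no value was had there, and voom could not be run on 4T1 values.

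Across genes, what a control sample and the inhibited sample of its number each added to their group's mean had an r of −0.327, 0.436 and −0.253 in 4T1, −0.0357, 0.132 and 0.208 in MMTV-PyMT, −0.0274, 0.141 and −0.0366 in E0771 and 0.158, 0.237 and −0.117 in E0771-LG samples, so shared numbers were not read as pairs. With the replicate block, 0 members were called in each tumor model, 1 in E0771 (beside 23.6% of genes) and 1 in E0771-LG cells (beside 48.2%), as without it, with medians of 2.97 and −0.52 in the tumors. Depth limits Acta1, Mylpf and Actn3 in cells, where some samples had under 10 reads, and is unknown for 4T1.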

Other observations

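Some genes outside the members stood out in a single tumor. Krt5, a basal keratin, was 5.68 on the log2 scale in 4T1 3B10 replicate 1 and between −0.98 and −0.11 in the other 5 4T1 tumors, and Krt17 and Krt14 were also highest there, at 4.62 and 7.30. Tnnt2, the cardiac troponin T, was 3.84 in MMTV-PyMT C44 replicate 1 and between −0.07 and 2.01 in the other 5. C44 replicate 1 was also the highest tumor for the members with reads and, among other genes, for Krt18, Krt8 and Epcam. Cfd, an adipocyte serine protease, was 5.08 in MMTV-PyMT 3B10 replicate 1 and between −2.45 and 0.90 in the other 5. These genes were chosen after their values were seen, and the differences were not tested.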
